A study of Mus musculus with 10 samples.

Results

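The levels of 8 genes that adipocytes use, Adipoq, Lep, Retn, Cfd, Plin1, Cidec, Plin4, and Fabp4, were followed through 10 RNA-seq libraries of mouse skeletal muscle. The genes were taken by name, as genes that mark adipocytes, and all 8 are among the 16112 genes with deposited counts. The deposited genes all had at least 10 reads in at least 3 libraries. Adipoq, Plin1, Plin4, Cfd, and Fabp4 reached 10 reads in all 10 libraries, Lep in 8, and Cidec and Retn in 7 each, so that none of the 8 passed this filter through 1 muscle alone.

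Adipocytes store triglyceride in a large lipid droplet, coat that droplet with perilipins and CIDE proteins, and secrete hormones and complement factors into the blood. Adiponectin, leptin, resistin, and adipsin, the products of Adipoq, Lep, Retn, and Cfd, are such secreted proteins. Skeletal muscle holds small numbers of adipocytes between its fibers and on its surface, and the fibers and the capillaries handle fatty acids with some of the same proteins.

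The study compared the transcriptomes of the extensor digitorum longus (EDL), a fast-twitch muscle of the lower leg, the psoas, a hip flexor that is also classed as fast, and the soleus, a slow postural muscle of the calf. All mice were wild type and of the strain labelled B6C3Fe a/a-Ttnmdm/J, with no treatment. EDL 1 and psoas 1 came from males of 42 days, EDL 2 and psoas 2 from males of 54 days, and EDL 3 and psoas 3 from females of 44 days. Soleus 1 came from a male of 42 days, soleus 2 and soleus 4 from females of 44 days, and soleus 3 from a mouse of 32 days whose sex is not given. The labels hold 7 animal codes for the 10 libraries. Psoas 1 and soleus 1, EDL 3 and soleus 2, and psoas 3 and soleus 4 each share a code. Reads had been trimmed for quality in EDL 1, EDL 2, psoas 1, and psoas 2, and in none of the soleus libraries. Total counts ranged from 12737971 in soleus 3 to 50431713 in psoas 1, and 3 counts, the upper limit that a count of 0 allows, corresponded to 0.0565 to 0.239 normalized CPM, the count scaled to a common library total after TMM normalization. The 8 measured genes of the muscle fiber list summed to 59792 to 129034 normalized CPM per library.

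The 200 bases before the annotated starts of Adipoq, Plin1, Lep, and Plin4 are shown as examples. Each is on its coding strand from 5′ to 3′, from RefSeq on GRCm38.p6. Movement with Adipoq across libraries does not single out the genes shown. The Pearson r of log2 level with Adipoq was 0.92 for Plin1, 0.91 for Lep, and 0.34 for Plin4. It was higher for Cfd (0.97) and Retn (0.94), whose windows are not shown. Capitals mark 2 motifs sought on both strands: the CCAAT box, CCAAT, and a C/EBP-type motif, TTGCNNAA. A TATA box, as the exact letters TATAAA, and a nuclear receptor motif, AGGTCA, were also sought and were found in none of the windows. Near matches were not counted, such as TATAAG in the Lep and Plin4 windows. Overlapping matches were allowed.
Adipoq, chr16:23146336-23146535, plus strand: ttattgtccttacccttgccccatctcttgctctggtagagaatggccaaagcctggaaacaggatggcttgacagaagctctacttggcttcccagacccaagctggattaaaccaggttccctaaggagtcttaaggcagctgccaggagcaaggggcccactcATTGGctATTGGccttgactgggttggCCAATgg
Plin1, chr7:79732777-79732976, minus strand: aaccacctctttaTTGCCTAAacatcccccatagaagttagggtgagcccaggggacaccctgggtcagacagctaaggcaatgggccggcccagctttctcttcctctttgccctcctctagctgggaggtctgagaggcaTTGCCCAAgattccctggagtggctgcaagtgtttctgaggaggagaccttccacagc
Lep, chr6:29060021-29060220, plus strand: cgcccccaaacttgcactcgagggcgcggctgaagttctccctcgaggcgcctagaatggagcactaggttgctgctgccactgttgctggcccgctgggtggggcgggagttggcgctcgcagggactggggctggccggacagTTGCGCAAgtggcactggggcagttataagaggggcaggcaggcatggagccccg
Plin4, chr17:56109783-56109982, minus strand: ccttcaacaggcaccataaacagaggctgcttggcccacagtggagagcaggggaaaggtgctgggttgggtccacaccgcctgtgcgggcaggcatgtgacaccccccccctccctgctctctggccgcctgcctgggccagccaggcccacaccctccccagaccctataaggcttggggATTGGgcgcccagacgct

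The Adipoq window held 3 CCAAT boxes, whose first bases lie 34, 27, and 7 bases before the start. The Plin1 window held C/EBP-type motifs at 187 and 58 bases, and the Lep window held such a motif at 55 bases. The Plin4 window held a CCAAT box at 18 bases and no C/EBP-type motif. No match was found in the windows of Cfd and Retn, and in those of Cidec a C/EBP-type motif stood 198 bases before the start of 1 of its 2 promoters. Of all 32817 promoters in the same table, 29.3% held a CCAAT box, 7.48% a C/EBP-type motif, 11.4% the nuclear receptor motif, and 9.96% a TATA box within 200 bases. These matches are letters in the reference sequence, and binding was not measured. Whether the motifs go with the levels was not tested.

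Adipoq encodes adiponectin, a hormone made almost only by adipocytes that raises fatty acid oxidation in muscle and liver. Its level was 2.08, 5.37, and 5.22 normalized CPM in EDL 1 to 3, 8.42, 3.04, and 1.06 in psoas 1 to 3, and 16.6, 11.2, 25.7, and 6.33 in soleus 1 to 4. The 3 highest libraries were all soleus, psoas 1 lay above the lowest soleus library, and the EDL libraries lay below all 4 soleus libraries. The means were 4.22 ± 1.86 (SD, n = 3) in EDL, 4.17 ± 3.81 (SD, n = 3) in psoas, and 15.0 ± 8.29 (SD, n = 4) in soleus. In whole muscle, fewer adipocytes and less RNA per adipocyte cannot be told apart.

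Cfd encodes adipsin, a serine protease of the alternative complement pathway and a main secreted product of mouse fat. Its level was 5.53, 16.2, and 14.7 normalized CPM in EDL, 33.0, 8.18, and 6.66 in psoas, and 61.6, 37.4, 93.1, and 19.3 in soleus. As with Adipoq, psoas 1 reached into the soleus range and no EDL library did.

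Lep encodes leptin, the hormone that reports fat stores to the hypothalamus. It was counted 11, 43, and 33 times in EDL, 21, 1, and 0 times in psoas, and 36, 120, 83, and 26 times in soleus. On the normalized scale these counts gave 0.257, 0.810, and 1.81 CPM in EDL, 0.554, 0.0634, and 0 CPM in psoas, and 2.46, 3.59, 6.62, and 1.37 CPM in soleus. Every soleus library was above every psoas library, and EDL 3 was above the lowest soleus library. A count of 0 in psoas 3 allows up to 0.212 normalized CPM, so leptin was not detectable there at this depth rather than absent.

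Retn encodes resistin, a cysteine-rich hormone that in mice comes from fat. Its level was 0.210, 0.980, and 1.65 normalized CPM in EDL, 2.01, 0.444, and 0.354 in psoas, and 2.33, 2.60, 6.86, and 1.43 in soleus. Soleus 4 overlapped with EDL 3 and psoas 1.

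**Figure D1:**
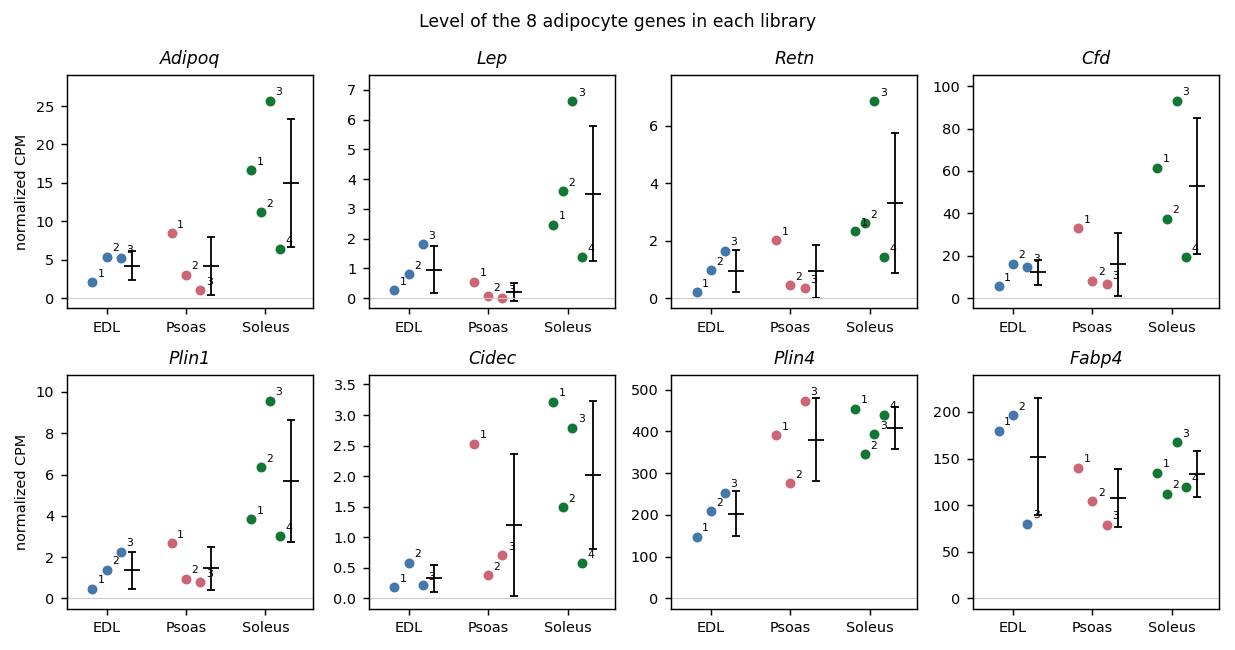
Level of the 8 adipocyte genes in normalized CPM (vertical axes, linear, each panel with its own range) in EDL (n = 3), psoas (n = 3), and soleus (n = 4). Points are libraries with their replicate number and black bars are the mean ± SD; soleus 3 is the highest library for Adipoq, Lep, Retn, Cfd, and Plin1, while Plin4 and Fabp4 lie at 79.1 normalized CPM or more in every library.

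Plin1 encodes perilipin 1, the droplet coat protein of adipocytes that holds back lipolysis until hormones release it. Its level was 0.467, 1.39, and 2.25 normalized CPM in EDL, 2.67, 0.951, and 0.779 in psoas, and 3.83, 6.34, 9.57, and 3.01 in soleus. All 4 soleus libraries were above all 6 libraries of the other muscles.

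Cidec encodes a CIDE protein that lets droplets fuse into the large droplet of white fat. Its level was 0.187, 0.584, and 0.220 normalized CPM in EDL, 2.53, 0.380, and 0.708 in psoas, and 3.22, 1.50, 2.79, and 0.581 in soleus. The fewest reads behind these values were 4, 6, and 8 counts, in EDL 3, psoas 2, and EDL 1. Soleus 4 lay just below EDL 2, so the muscles overlapped, and psoas 1 was the third highest library.

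Plin4 encodes perilipin 4, which coats small new droplets in adipocytes and is also made in muscle fibers. Its level was 147, 209, and 253 normalized CPM in EDL, 391, 276, and 473 in psoas, and 455, 345, 393, and 440 in soleus. EDL was below both other muscles in every library, and psoas and soleus overlapped. The means were 203 ± 53.0 (SD, n = 3), 380 ± 99.0 (SD, n = 3), and 408 ± 49.4 (SD, n = 4), so that Plin4 varied far less between soleus libraries than Adipoq did. Plin4 lies over part of Hdgfl2 on the opposite strand, but their exons share only 17 bases, and the strand setting of the counting is not given in the sources used here.

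Fabp4 encodes a fatty acid binding protein that is abundant in adipocytes and also present in capillary endothelium and macrophages. Its level was 180, 196, and 80.0 normalized CPM in EDL, 140, 104, and 79.1 in psoas, and 135, 112, 168, and 119 in soleus. The muscles overlapped throughout, and the highest libraries were EDL 1 and EDL 2, of which EDL 1 was among the 3 lowest for each of the other 7 genes. The summed level of the 12 measured endothelial markers was also highest in EDL 1 and EDL 2, at 350 and 293 normalized CPM, against 188 in EDL 3, 173 to 197 in psoas, and 219 to 244 in soleus. Other cell markers shared this trait. Macrophage markers summed to 290 and 323 in EDL 1 and EDL 2 against 124 in EDL 3. Markers of fibro-adipogenic progenitors, from which muscle adipocytes arise, summed to 1376 and 1700 against 961. The reads of EDL 1 and EDL 2 had been trimmed and those of EDL 3 had not. EDL 1 and EDL 2 also came from males and held more counts than EDL 3, from a female. With trimming as a covariate in edgeR's test, Fabp4 differed by 0.52 on the log2 scale for soleus against EDL (adjusted p = 0.264). For soleus against psoas it differed by 0.94 (adjusted p = 0.0343). Without the covariate these differences were -0.19 and 0.31. With sex as a covariate instead, in a fit without soleus 3, they were -0.04 and 0.43 (adjusted p = 0.925 and 0.257). The part of capillaries, macrophages, or other cells in the Fabp4 values was not tested.

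Per kilobase of exon, which allows a comparison between genes, the mean levels over the 10 libraries were 58.5 normalized CPM for Plin4, 32.1 for Cfd, 29.3 for Fabp4, 6.16 for Adipoq, 1.19 for Retn, 0.684 for Cidec, 0.672 for Plin1, and 0.523 for Lep. The ranges of any neighbours in this order overlapped across libraries. The place of Fabp4 depends on its length, since its summed exons span 4489 bases and its longest principal transcript 896 bases. Its mean share in the sum of the 8 genes was 25.4% by the former and 59.8% by the latter, and that of Plin4 47.4% and 25.0%.

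Within libraries, Cfd, Retn, and Plin1 kept narrow ratios to Adipoq. Per kilobase, Cfd stood at 3.99 to 9.39 times Adipoq, a 2.35-fold range over libraries in which Adipoq itself ranged 24.2-fold. Retn stood at 0.0884 to 0.292 and Plin1 at 0.0668 to 0.218 times Adipoq, ranges of 3.30-fold and 3.26-fold. In all 10 libraries the order was therefore Cfd above Adipoq above Retn above Plin1. The ratio of Cidec to Adipoq ranged 15.8-fold, from 0.0313 in EDL 3 to 0.496 in psoas 3, the lower value resting on 4 Cidec counts and the higher on 15 Adipoq counts. The ratio of Fabp4 to Adipoq ranged 13.3-fold, from 2.01 in soleus 3 to 26.6 in EDL 1. That of Plin4 ranged 29.1-fold, from 3.66 in soleus 3 to 106 in psoas 3. Plin4 and Fabp4 thus did not follow Adipoq from library to library.

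**Figure D2:**
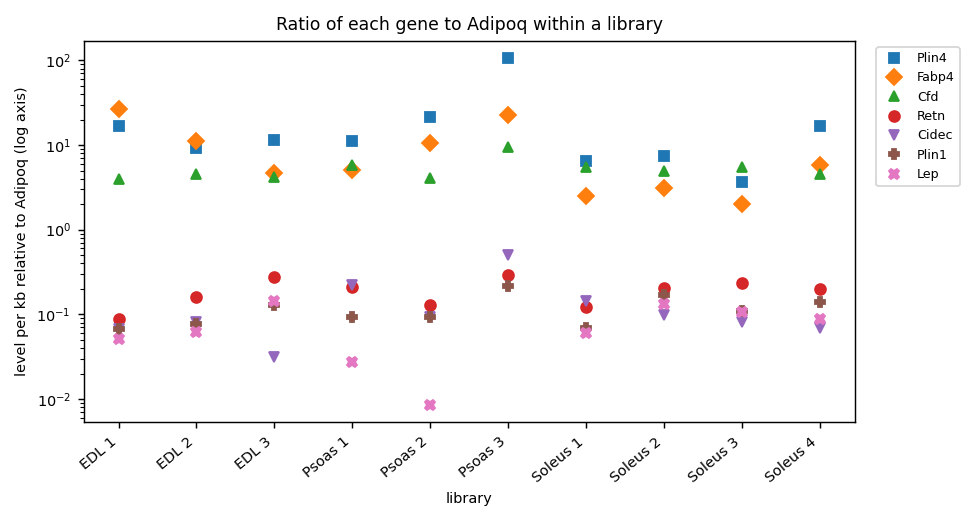
Level per kilobase of 7 genes relative to Adipoq in the same library (vertical axis, log scale, no unit) for each of the 10 libraries (horizontal axis). Cfd stays between 3.99 and 9.39, whereas Plin4 and Fabp4 spread from 3.66 to 106 and from 2.01 to 26.6; Lep has no point in psoas 3, where its count was 0.

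Leaving aside Plin4 and Fabp4, a choice made after their values were seen, the other 6 genes summed to 8.73, 25.4, and 25.8 normalized CPM in EDL, 49.2, 13.1, and 9.56 in psoas, and 90.0, 62.6, 145, and 32.0 in soleus. The sum was higher in psoas 1 than in soleus 4, and the other soleus libraries were above all EDL and psoas libraries. Per kilobase, Cfd made up 72.7% to 82.4% of this sum in each library (mean 77.1% ± 2.79, SD, n = 10). Soleus 3, from the youngest mouse, was the highest of the 10 libraries for 5 of the 6 genes, and soleus 1 for Cidec. EDL 1 and psoas 3 were each among the lowest pair of libraries for 5 of the 6 genes.

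The comparison of soleus with EDL asked how the slow muscle differs from a fast one. Log2 fold changes were above 0 for 7 of the 8 genes, with a median of 1.89 against -0.05 over all genes, where 46.9% were above 0. On the log2 scale, Plin1 was higher in soleus by 2.10 (SE 0.60, adjusted p = 0.0319), Cidec by 2.50 (SE 0.75, adjusted p = 0.0395), Cfd by 2.12 (SE 0.66, adjusted p = 0.0447), and Plin4 by 1.01 (SE 0.24, adjusted p = 0.0153), as tested by quasi-likelihood in edgeR and adjusted by Benjamini-Hochberg over all genes. These 4 passed an adjusted p of 0.05, as did 9.79% of all genes in this direction, but 0 passed the study's thresholds, an adjusted p under 0.01 with more than a 2-fold change, which 5.77% of all genes passed. At an unadjusted p under 0.05 in edgeR's test there were 7, against 35.0% of all genes. DESeq2, whose Wald test the study used, called 2 at the study's thresholds, Plin1 and Cidec. The share of all genes that DESeq2 called is not given here. Adipoq differed by 1.82 (SE 0.63, adjusted p = 0.0640), Lep by 1.94 (SE 0.78, adjusted p = 0.102), and Retn by 1.85 (SE 0.76, adjusted p = 0.111), all short of 0.05. Groups did not overlap for 4 genes, Adipoq, Plin1, Plin4, and Cfd, and for 15.2% of all genes in this direction. Over 20 alternatives, an adjusted p under 0.05 was kept 16 times for Plin4, 13 times for Plin1, 11 times for Cidec, and 9 times for Cfd. Leaving out EDL 1 ended it for all 4 (adjusted p = 0.0826 for Plin4, 0.123 for Plin1, 0.157 for Cidec, and 0.171 for Cfd), and so did leaving out EDL 2 (0.0579, 0.104, 0.0582, and 0.0958). Without soleus 3 it was 0.0781 for Plin1, 0.0839 for Cidec, and 0.109 for Cfd, and without soleus 2 it was 0.0641, 0.0583, and 0.0605. For Cidec and Cfd it was also ended without soleus 1 (0.0878 and 0.0806) and without EDL 3 (0.0694 and 0.0599). With the animal code as a random effect in limma-voom, adjusted p was 0.0384 for Adipoq, 0.0254 for Lep, 0.0522 for Retn, and 0.0584 for Cidec, so that Adipoq and Lep came under 0.05 and Cidec did not, while Plin1, Plin4, and Cfd stayed under it. The difference of Fabp4 was -0.19, with a 95% interval from -0.85 to 0.46.

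The comparison of soleus with psoas asked the same of the other fast muscle. All 8 log2 fold changes were above 0, as were 51.4% of all genes, and their median was 1.69 against 0.02. On the log2 scale, Lep was higher in soleus by 3.67 (SE 0.90, adjusted p = 0.0189), and it was the only gene of the 8 past an adjusted p of 0.05 in edgeR's test, which 7.75% of all genes passed in this direction. This value depends on psoas libraries with 21, 1, and 0 counts, and adjusted p ranged from 0.000105 with DESeq2 to 0.131 with read trimming as a covariate, was 0.0740 without psoas 2 and 0.0562 with the animal code as a random effect in limma-voom, and was under 0.05 in 15 of 20 alternatives. Of the 8 genes, 0 passed the study's thresholds in edgeR's test, which 5.69% of all genes passed. At an unadjusted p under 0.05 there were 5, against 28.4% of all genes, and DESeq2 called Plin1 and Lep. The adjusted p of Plin1 was 0.0560 at a difference of 1.87 (SE 0.59), that of Adipoq 0.0860 at 1.78 (SE 0.63), that of Cfd 0.107 at 1.70 (SE 0.65), and that of Retn 0.175 at 1.67 (SE 0.76). Plin1 and Lep did not overlap between the groups, as did 13.9% of all genes in this direction. Plin4 differed by 0.10, with a 95% interval from -0.41 to 0.62, Fabp4 by 0.31, from -0.36 to 0.97 (0.94 with trimming as a covariate), and Cidec by 0.63, from -0.87 to 2.12.

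In the comparison of the 2 fast muscles, psoas and EDL, 6 of the 8 log2 fold changes were above 0, as were 50.5% of all genes, with a median of 0.20 against 0.01. For Adipoq and Retn, which are counted among the 6, the fitted change and the group means had opposite signs: the means were 4.17 in psoas and 4.22 in EDL for Adipoq, and 0.934 and 0.946 normalized CPM for Retn. On the log2 scale, Plin4 was higher in psoas by 0.90 (SE 0.25, adjusted p = 0.0412, edgeR's quasi-likelihood test), the only gene of the 8 past 0.05, where 4.76% of all genes were higher at that threshold. This held in 9 of 20 alternatives, and the adjusted p was 0.179 without EDL 1, 0.116 without EDL 2, 0.0938 without psoas 1, and 0.131 without psoas 3, between 0.0504 and 0.0633 with 1 soleus library left out, and 0.103 in a fit of psoas and EDL alone. Plin4 was also the only gene of the 8 with all psoas libraries above all EDL libraries, which held for 13.4% of all genes. Of the 8 genes, 0 passed the study's thresholds in edgeR and in DESeq2, against 2.11% of all genes in edgeR. At an unadjusted p under 0.05 in edgeR's test there were 2, against 29.0% of all genes. Adipoq differed by 0.05, with a wide 95% interval from -1.38 to 1.47, and Lep by -1.73, from -3.78 to 0.32, so that the data allow differences of over 2-fold in either direction for Adipoq. Cidec differed by 1.87 (adjusted p = 0.134), Cfd by 0.42 (adjusted p = 0.727), Plin1 by 0.22 (adjusted p = 0.853), Retn by 0.18 (adjusted p = 0.914), and Fabp4 by -0.50 (adjusted p = 0.334). The signs of 4 of these values depended on single choices. Without psoas 1 the differences were -1.04 for Adipoq, -0.73 for Cfd, -0.63 for Plin1, and -1.19 for Retn, and without EDL 1 they were -0.31 for Adipoq, -0.25 for Plin1, and -0.37 for Retn. Adipoq kept its sign in 13 of 20 alternatives, and Retn was at -0.16 with age as a covariate.

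**Figure D3:**
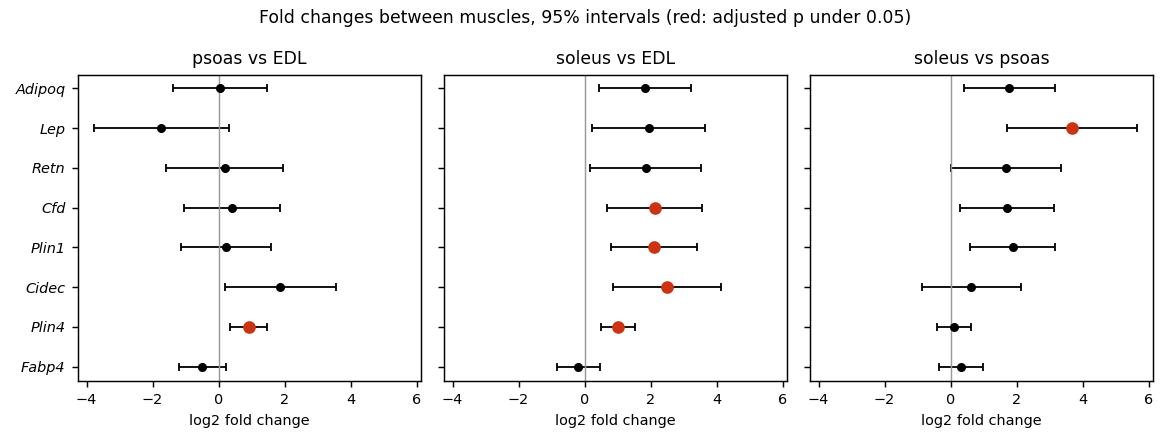
Log2 fold change of the 8 genes (horizontal axes) for the 3 comparisons of muscles from 1 edgeR fit, with 95% intervals as bars. Red points have an adjusted p under 0.05 over all genes: Plin4 for psoas against EDL, Cfd, Plin1, Cidec, and Plin4 for soleus against EDL, and Lep for soleus against psoas.

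The 3 comparisons share libraries and are not independent of each other. The 3 animal codes with more than 1 library allowed soleus to be set against another muscle of the same code, as values with no test. Adipoq was 1.98-fold higher in soleus 1 than in psoas 1, 2.15-fold higher in soleus 2 than in EDL 3, and 5.96-fold higher in soleus 4 than in psoas 3. Cfd was 1.87-fold, 2.55-fold, and 2.90-fold higher in the same order, Plin1 1.44-fold, 2.82-fold, and 3.86-fold, and Retn 1.16-fold, 1.58-fold, and 4.03-fold. Lep was 4.45-fold and 1.98-fold higher in the former 2 and at least 6.46-fold higher in soleus 4 than in psoas 3, taking 3 counts in psoas 3 as the floor. These 5 genes were higher in soleus in 3 of 3 codes, and Cidec, Plin4, and Fabp4 in 2 of 3. Plin4 and Cidec were lower in soleus 4 than in psoas 3, at 0.930 and 0.820 times its level, and Fabp4 was at 0.959 times its psoas 1 level in soleus 1. Soleus 4 was the lowest soleus library for 6 of the 8 genes, and yet it stood above the psoas library of the same code for the 4 secreted factors and Plin1.

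**Figure D4:**
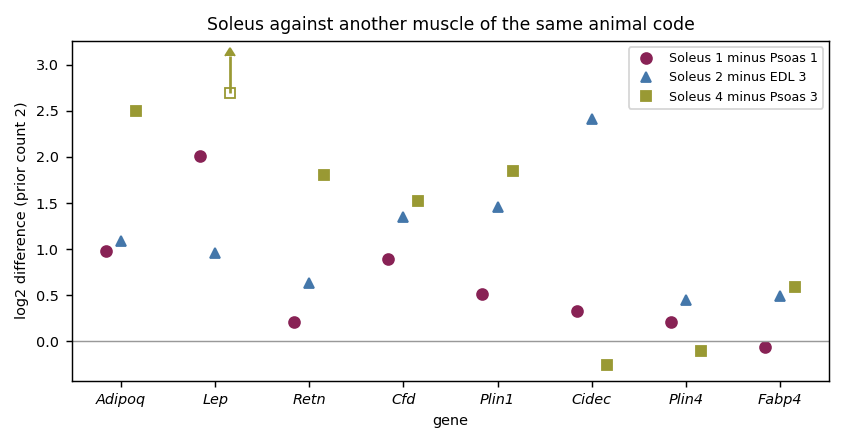
Log2 difference in normalized CPM (prior count 2, vertical axis) between a soleus library and another muscle's library with the same animal code, for the 8 genes. The open square with an arrow is the lower bound for Lep, at 3 counts in psoas 3; Adipoq, Lep, Retn, Cfd, and Plin1 lie above 0 in 3 of 3 codes.

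Trimming of reads was confined to EDL and psoas libraries. Among the untrimmed libraries alone, Adipoq was 5.22 normalized CPM in EDL 3 and 1.06 in psoas 3 against 6.33 to 25.7 in soleus, and Plin4 was 253 and 473 against 345 to 455. For soleus against EDL, trimming as a covariate in edgeR's test gave an adjusted p of 0.125 for Plin4, 0.155 for Plin1, 0.0898 for Cidec, and 0.121 for Cfd. Age as a covariate gave 0.0672, 0.156, 0.194, and 0.251 in the same order, so that with either covariate 0 of the 4 genes stayed under 0.05. Sex as a covariate, in a fit without soleus 3, gave 0.0345, 0.0864, 0.0290, and 0.0731, so that Plin4 and Cidec stayed under 0.05. For Lep in soleus against psoas, edgeR's adjusted p was 0.0521 with sex and 0.0566 with age as a covariate. Soleus held both the youngest mouse and no trimmed library. The trimmed EDL and psoas libraries were all from males, and the untrimmed EDL 3 and psoas 3 from females. Muscle, age, sex, and trimming thus cannot be told apart in full.

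Leaving out the 8 genes themselves, the 10 genes whose log2 level had the highest Pearson r with Adipoq over the 10 libraries, of 12664 genes with a mean of at least 1 CPM, were Acvr1c (r = 0.97), Dkk2 (0.96), Meaf6 (0.95), Cebpa (0.92), Tmem45b (0.91), C530008M17Rik (0.90), Bahcc1 (0.89), Cdo1 (0.89), Nnat (0.88), and Plvap (0.88). Acvr1c encodes the receptor ALK7 of adipocytes, and Cebpa a transcription factor of adipocyte differentiation. Without soleus 3, the library with the most Adipoq, r was 0.96 for Acvr1c, 0.95 for Dkk2, and 0.88 for Cebpa. On the same measure Cfd stood at 0.97, Retn at 0.94, Plin1 at 0.92, Lep at 0.91, and Cidec at 0.73, whereas Fabp4 stood at 0.37 and Plin4 at 0.34. The median over the genes compared was 0.03. The 10 points share depth and in part animals, and the genes were picked as the highest of many, so these values are descriptions.

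Of the adipocyte identity list, 14 of 18 genes were measured, and Adrb3, Klb, Itih1, and Apoc1 were not among the genes with deposited counts. Against EDL, 4 were higher in soleus and 0 lower by edgeR's test at the study's thresholds, which 5.77% of all genes passed in either direction. The share of all genes was 5.69% for soleus against psoas and 2.11% for psoas against EDL. These shares also stand beside the counts of the lists that follow. Lpl, the lipase that frees fatty acids from lipoproteins, stood at 1645 ± 37.1 normalized CPM (SD, n = 4) in soleus, 236 ± 18.5 (SD, n = 3) in EDL, and 471 ± 53.7 (SD, n = 3) in psoas. It was 6.96-fold higher in soleus than in EDL (adjusted p = 2.17e-05) and 3.49-fold higher than in psoas (adjusted p = 0.000144). Cd36, a fatty acid transporter also abundant in oxidative fibers and capillaries, was 3.02-fold and 2.81-fold higher in soleus. Npr3, the clearance receptor for natriuretic peptides, was 7.49-fold and 15.2-fold higher. Adig, a small adipocyte protein, was higher in soleus than in EDL (8.14-fold, adjusted p = 0.00152) and higher in psoas than in EDL (6.37-fold, adjusted p = 0.00776), the only call of this list between the fast muscles, which was kept in 8 of 20 alternatives. Over the alternatives, 1 to 6 genes of the list were called for soleus against EDL, the fewest with read trimming as a covariate, and 2 to 4 for soleus against psoas. The median log2 fold changes of the list were 1.52 for soleus against EDL and 1.10 for soleus against psoas. Its other measured genes, Pparg and Cebpa among them, were not called in edgeR's test. Among soleus libraries Adipoq was highest in soleus 3, and of the called genes only Cd36 was too (1124 normalized CPM). Adig was highest in soleus 1 (4.52). Npr3 (172) and Lpl (1684) were highest in soleus 4, which had the least Adipoq, and Lpl was nearly even, from 1596 upward.

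Of 12 measured genes of lipolysis and the droplet coat, 6 were called higher in soleus than in EDL and 0 lower, against 5.77% of all genes called. Over the alternatives 4 to 7 were called. The 6 were the lipases Pnpla2 (2.90-fold), Lipe (2.71-fold), and Mgll (2.16-fold), the perilipins Plin3 (2.40-fold) and Plin5 (6.65-fold), and Cidea (15.8-fold), a relative of Cidec that marks thermogenic fat. Plin5, which ties droplets to mitochondria in oxidative tissue, stood at 58.0 ± 13.8 normalized CPM (SD, n = 4) in soleus and 8.71 ± 0.277 (SD, n = 3) in EDL. Cidea, Lipe, and Mgll were also higher in soleus than in psoas, by 8.76-fold, 2.07-fold, and 2.21-fold. Between psoas and EDL 0 of the 12 were called in edgeR's test, and 0 to 2 over the alternatives. Even so, 4 of the 12 had all psoas libraries above all EDL libraries, as did 13.4% of all genes, and 1 had them all below. Without psoas 1 or psoas 2, the call for soleus against psoas held for 1 of the 12 genes.

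Of 16 genes of lipogenesis and triglyceride synthesis, all measured, 3 were higher and 1 lower in soleus than in EDL. Dgat2, the enzyme that adds the last acyl chain to triglyceride, was 10.2-fold higher (adjusted p = 0.000115), Agpat2 4.01-fold, and Pck1 5.64-fold. Gpd1, the cytosolic glycerol phosphate dehydrogenase that fast fibers hold in quantity, was 5.24-fold lower (adjusted p = 0.000497). Against psoas, Dgat2 and Agpat2 were 4.23-fold and 3.56-fold higher in soleus and Gpd1 8.68-fold lower, and 0 of the 16 passed between psoas and EDL in edgeR's test, with 0 to 3 over the alternatives.

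Of 10 thermogenic fat genes, 7 were measured. Ucp1, Elovl3, and Adrb3 were not among the genes with deposited counts, all of which had at least 10 reads in at least 3 libraries. Cidea was called higher in soleus than in both other muscles, as given above. Dio2, the deiodinase that activates thyroid hormone, was 6.33-fold lower in psoas than in EDL and 4.84-fold higher in soleus than in psoas. Zic1, a transcription factor, was 7.91-fold lower in psoas and 5.92-fold lower in soleus than in EDL, calls that were kept in 11 and 13 of 20 alternatives.

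Of 10 measured receptors and partners of the hormones, 2 were lower in psoas than in EDL and the same 2 were higher in soleus than in psoas. Lepr, the leptin receptor, stood at 12.3 ± 2.54 normalized CPM (SD, n = 3) in EDL, 2.55 ± 0.269 (SD, n = 3) in psoas, and 7.47 ± 1.84 (SD, n = 4) in soleus. The mean of Lep was also lowest in psoas, but its psoas and EDL libraries overlapped and their difference did not pass the test (adjusted p = 0.244). Tlr4, a receptor to which resistin can bind, stood at 16.5 ± 4.86 (SD, n = 3), 5.68 ± 0.795 (SD, n = 3), and 24.5 ± 5.02 (SD, n = 4), and its difference between psoas and EDL was called in 11 of 20 alternatives. No gene of this list was called between soleus and EDL in edgeR's test or in any of the 20 alternatives. Adipor1 and Adipor2, the adiponectin receptors, were not called in any comparison, with adjusted p from 0.0984 to 0.569 and log2 differences from -0.27 to 0.67. These receptors were picked after their values were seen, as the partners of adiponectin.

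**Figure D5:**
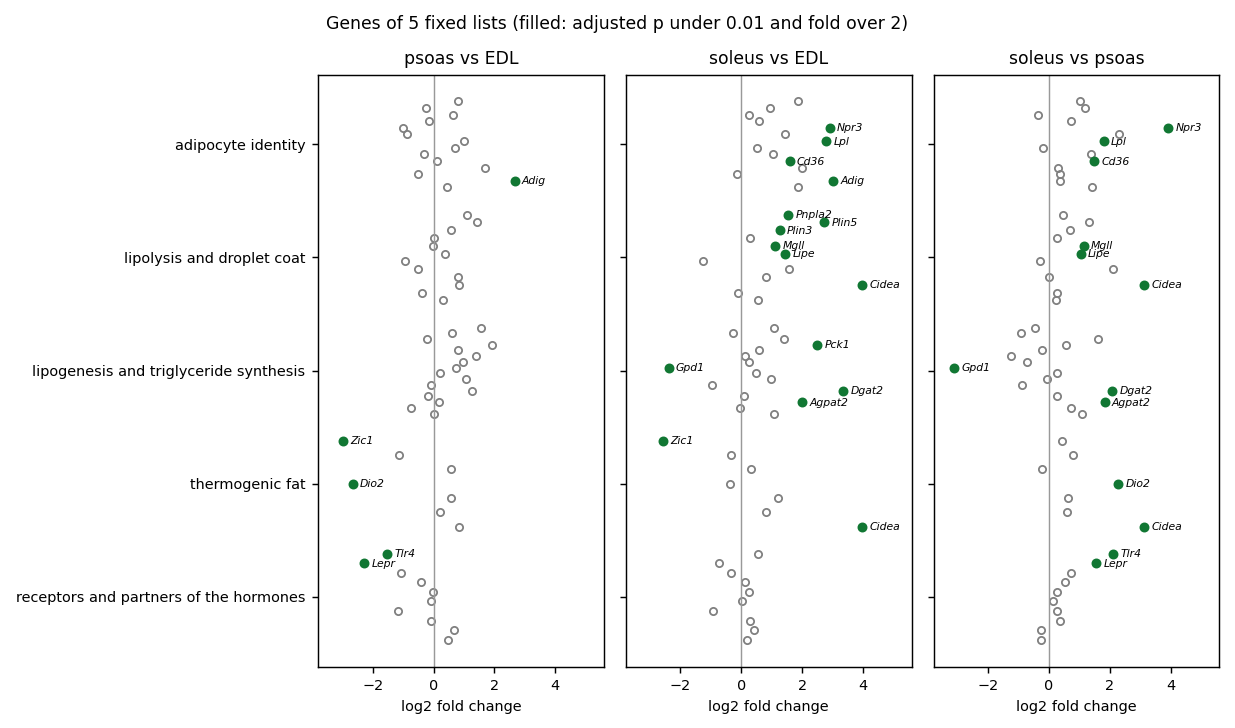
Log2 fold change (horizontal axes) of the measured genes of 5 fixed lists in the 3 comparisons of muscles. Filled and named points passed the study's thresholds for p and fold; most of them lie to the right of 0 for soleus, with Gpd1 and Zic1 to the left.

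Markers of other cells were counted beside these results, at the study's thresholds in edgeR's test. Of all genes, 5.77% passed these for soleus against EDL, 5.69% for soleus against psoas, and 2.11% for psoas against EDL, in either direction. A single call in a short list is not read as a result about that list. Of 9 measured markers of fibro-adipogenic progenitors, the cells from which muscle adipocytes arise, 4 were lower in soleus than in EDL and 3 were lower in psoas than in EDL. Between soleus and psoas 0 were called. The summed level of the 9 was 961 to 1700 normalized CPM in EDL, 332 to 552 in psoas, and 495 to 575 in soleus. It was thus highest in EDL. In psoas it lay below all EDL values, while the mean of Adipoq was 4.17 normalized CPM in psoas and 4.22 in EDL. With trimming as a covariate 0 of the 9 were called between soleus and EDL. Between psoas and EDL 0 were called without EDL 1, EDL 2, psoas 2, or psoas 3. Of 12 endothelial markers, 1 was called lower in psoas than in EDL and 0 were called for soleus. Of 9 macrophage markers, 1 was called lower in psoas and 1 in soleus than in EDL. The endothelial call was lost in 12 of 20 alternatives, and 0 to 4 macrophage markers were called for psoas against EDL and 0 to 3 for soleus against EDL. Macrophage markers summed to 124 to 323 normalized CPM in EDL, 52.2 to 138 in psoas, and 100 to 157 in soleus. All 5 tendon markers were lower in psoas than in EDL and 4 were higher in soleus than in psoas, with sums of 464 to 500, 26.7 to 68.9, and 77.0 to 346 normalized CPM in EDL, psoas, and soleus. The former count fell to 0 without psoas 1 or psoas 3, and the latter to 0 without psoas 1, with trimming as a covariate, or in a fit of the 2 muscles alone. Of 8 fiber markers, 2 were higher in soleus than in EDL, and 2 were higher and 2 lower in soleus than in psoas. Of the lymphocyte and epithelium lists, 2 of 6 and 1 of 6 genes were measured, and of the nerve sheath list 5 of 6, with 0 called in any comparison in edgeR's test and at most 1 of each list over the alternatives. Krt5, Krt14, and Epcam, which would mark skin or mammary tissue, were not among the genes with deposited counts. The part of any of these cells, or of fat on the surface of the muscle, in the adipocyte gene levels was not tested.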

How the data were processed

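Total RNA of 10 whole-muscle samples (3 EDL, 3 psoas, 4 soleus) was sequenced from libraries made with a stranded total RNA kit. The paper states that there were 3 sequencing runs. The run of each library is not among the labels used here, so it was not a covariate in any fit. The authors trimmed low-quality read files with Trimmomatic 0.32, aligned read pairs with TopHat2 2.1.1 to GRCm38.p4, and counted reads per gene in R. What was deposited is a table of raw counts for each library, without normalization, restricted to genes that reach 10 reads in at least 3 libraries, which all 16112 genes met when checked. The treatment of reads with several alignments and the strand setting are not given in the sources used here.

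Groups were taken from the sample labels. The counts were fitted once over the 10 libraries with edgeR 4.0.16 (quasi-likelihood test, TMM normalization, no covariate) in R 4.3.3, and p-values were adjusted by Benjamini-Hochberg over all genes. The SE of a fold change was derived from the fold change and the F statistic of the test. The 95% intervals use this SE with a t distribution at the moderated degrees of freedom, so both are approximate. A call needed an adjusted p under 0.01 with more than a 2-fold change. These are the study's thresholds, which it applied to the Wald test of DESeq2. Over all genes, edgeR's test called 340 for psoas against EDL and 917 for soleus against psoas, fewer than the study reported. It called 929 for soleus against EDL, more than the study reported. Alternatives were DESeq2 1.42.0, limma 3.58.1 with the animal code as a random effect, other normalizations, filterByExpr, covariates for replicate, trimming, age, and sex, the 2 muscles alone, another threshold, and each library left out in turn. The methods were tested on simulated data.

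Levels are normalized CPM, per kilobase of summed exons (GENCODE M21, GRCm38) where genes are compared. Log2 differences between libraries used a prior count of 2. Precision follows from totals of 12737971 to 50431713 counts per library, and limits from counting cover counting error only. The labels hold 7 animal codes, more than the mice the paper states, so some codes may share a mouse, and p-values measure the spread between these samples, not between independent mice. Named are all members, the list genes that passed in any comparison, and the 10 genes most correlated with Adipoq. Of lists of other cell types only counts and sums are given. The members and lists were chosen with earlier results of these data known. Promoter sequences came from RefSeq (GRCm38.p6), in which 7 of the 8 genes matched. Tables and figures were made with Python 3.11.15, pandas 2.3.3, scipy 1.17.1, and matplotlib 3.10.9.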

Additional observations from a re-analysis of the deposited data

How the results depend on the processing

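The number of the 8 genes called by edgeR's test at the study's thresholds was 0 in each comparison. DESeq2, whose Wald test the study used, called 2 for soleus against EDL (Plin1, Cidec) and 2 for soleus against psoas (Plin1, Lep). At an adjusted p under 0.05 with no fold limit, 1 was called for psoas against EDL (Plin4), 4 for soleus against EDL, and 1 for soleus against psoas (Lep). With 1 library left out, the number ranged from 0 to 0 for psoas against EDL, from 0 to 1 for soleus against EDL (Plin4 without EDL 3), and from 0 to 0 for soleus against psoas. The fit with the replicate number as a block called 0, 0, and 0. Libraries with the same number did not all deviate together (r from -0.23 to 0.50 over pairs), and psoas 1 and soleus 1 alone share both a number and an animal code, so the numbers were not taken to pair the samples. Libraries with the same animal code had r of 0.19, 0.34, and 0.38. For soleus against EDL, log2 fold changes kept their direction in all 20 alternatives for the 7 genes other than Fabp4. For soleus against psoas they did so for the 7 genes other than Plin4. Without length correction the mean share of Plin4 in the sum of the 8 genes was 64.8%, that of Cfd 5.12%, and that of Adipoq 1.5%. Cidec, Retn, and Lep rest on fewer than 10 counts in 3, 3, and 2 libraries, where depth limits their ratios. No soleus library stood apart by Dixon's ratio for any of the 8 genes; the highest ratio was 0.783, for Retn in soleus 3, under the 95% critical value.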
